A study of Mus musculus with 5 samples.

Results

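The genes described here encode 10 neuropeptide precursors made by neurons of the cortex or striatum: Sst, Npy, Vip, Cck, Crh, Tac1, Tac2, Pdyn, Penk and Nts. They were chosen by gene symbol from the authors' deposited table, which holds 51912 annotated genes, and not by their values. All 10 are among the 17420 genes for which the table gives an adjusted p-value. The libraries came from C57BL/6 mice, 2 after a sham operation and 3 after an ischemic stroke. The labels name no other genotype, transgene or drug treatment that sets the groups apart. In the stroke model, per the labels' protocols, a silicon-coated monofilament closed the middle cerebral artery for 30 minutes, animals with a drop in blood flow of at least 80% were included, and motor function was scored at 24 hours. Ketamine and xylazine were the anaesthetics. Neither the tissue nor the time after surgery at which it was taken is given in the sources used here. The wider study concerns TRIM9 and inflammation of the brain after stroke, and the comparison asks how these genes differed between stroke and sham.

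Neuropeptides are cut from larger precursor proteins inside dense-core vesicles and act on G-protein-coupled receptors when they are released. In the cortex, Sst, Npy, Vip, Crh and Tac2 mark kinds of GABAergic interneurons, and Cck is made by interneurons and by many pyramidal cells. In the striatum, projection neurons of the direct pathway make the precursors of substance P and dynorphin, Tac1 and Pdyn, and those of the indirect pathway make proenkephalin, Penk. Transcription of several of these genes is known to follow neuronal activity through CREB and AP-1 factors, which bind the cyclic AMP response element TGACGTCA or its core TGACG and related letters.

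Stretches of promoter are shown to mark where this element, its core or a variant lies. The variant is in Tac1 and Cck, 2 of the 3 genes that were higher in every stroke library than in either sham library. Pdyn, the other of the 3, holds none of the letters searched for. The full element is in Sst, whose stroke and sham values overlapped. The sequences are from RefSeq (GRCm38.p6), in windows from 250 bases before to 50 bases after a transcript start, and are written 5′ to 3′ along the gene's own strand. Windows were found for 8 of the 10 genes, all except Crh and Penk. The letters TGACGTCA, TGCGTCA and TGACG were searched for on both strands, and any match is in capitals, so that the core appears as CGTCA where it lies on the other strand. TGCGTCA was chosen after the sequences had been seen, and a link between these letters and the stroke values was not tested.
Sst, chr16:23890855-23890922, minus strand: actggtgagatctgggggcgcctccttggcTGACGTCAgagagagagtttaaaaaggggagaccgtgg
Tac1, chr6:7554832-7554898, plus strand: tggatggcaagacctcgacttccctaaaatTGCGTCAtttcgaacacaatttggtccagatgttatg
Tac1, chr6:7554988-7555052, plus strand: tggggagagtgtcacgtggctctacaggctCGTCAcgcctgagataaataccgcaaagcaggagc
Cck, chr9:121495707-121495773, minus strand: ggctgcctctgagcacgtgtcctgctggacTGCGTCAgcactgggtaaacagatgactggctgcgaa
Vip, chr10:5639109-5639173, plus strand: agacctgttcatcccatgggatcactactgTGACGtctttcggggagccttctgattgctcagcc

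The full element, TGACGTCA, was found in the window of Sst alone among the 8 genes, 48 bases before the start, and in 1.79% of all 32851 windows. TGCGTCA was found in Tac1, 199 bases before the start, and in Cck, 49 bases before it, and in 2.12% of all windows. The core TGACG lies within the full element and, as CGTCA, within TGCGTCA, so each match of those is also a core match. The core was found in Sst, Vip, Cck, Tac1 and Nts and in 20.8% of all windows. In Cck the only core match was the one within TGCGTCA. None of these letters were found in the windows of Npy, Tac2 or the 2 starts of Pdyn. Other letters that CREB or AP-1 factors bind were not searched for. A match is a description of the letters and no measure of binding. Distances are to RefSeq transcript starts, while the gene positions given below are GENCODE M21 spans, which can begin elsewhere. The stretch of Sst and that of Tac1 at chr6:7554988-7555052 lie inside those spans. The other Tac1 stretch crosses the start of its span.

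The authors' deposited table holds the mean, fold change and test of each gene and no values per library. Whole reads per library were recovered from those values for all 10 genes, with exactly 1 accepted set of 5 counts for each. The mean, fold change and SE alone left 1 set for Tac1, Nts, Npy, Tac2, Crh and Vip, 2 for Pdyn, 21 for Sst, 80 for Cck and 304 for Penk. For these 4 genes the set was settled by also requiring that it give back the dispersion, the model's measure of spread, that the SE implies. Values below are normalized read counts, which are reads divided by the size factor of the library. The recovered libraries carry a group but no replicate number. They are therefore called the deeper and shallower sham library (size factors 0.945 and 0.734) and the deepest, middle and shallowest stroke library (1.16, 1.13 and 1.12). Fold changes are stroke over sham.

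The sham libraries differed from each other in the brain regions whose markers they held. Of 8 recovered markers of hypothalamic neurons, all 8 were higher in the deeper sham library. Their summed count was 2540.3 there and 31.3 in the shallower, and ranged from 70.7 to 1011 in the stroke libraries. Oxt, the oxytocin gene, had 194 reads in the deeper and 1 in the shallower of the sham libraries, and 3, 3 and 7 after stroke. Hcrt, the orexin gene, had 206 reads, 0 reads and then 1, 2 and 2 reads in the same order. Pomc, the precursor of melanocortins and beta-endorphin, was also high in a stroke library, with 468 and 9 reads in sham and 1081, 22 and 194 in stroke. The authors' DESeq2 fit called 3 of the 8 lower in stroke, Lhx9, Otp and Oxt, and 1 of 10 thalamic genes, Tcf7l2. Over all tested genes, 1.56% were called in either direction. Limma, which called 2 of the 13602 genes with recovered reads, called 0 of either list. Of the uncalled genes, Pmch, which encodes melanin-concentrating hormone, was at -5.49 on the log2 scale (SE 1.88), Rora at -0.31 (SE 0.31) and Zic1 at 0.23 (SE 0.43). Markers of thalamic neurons summed to 15190.0 and 9122 in the sham libraries and 7545 to 9532 in stroke. Those of cortical glutamatergic neurons went the other way, at 20932 (deeper) and 32501 (shallower) in sham, with 23014 to 27456 in stroke. Each result below is given with this difference in view, and the part that region or cell content had in it was not tested.

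None of the 10 neuropeptide genes passed the authors' test, the DESeq2 Wald test at an adjusted p below 0.05, against 1.56% of all tested genes. At an unadjusted p below 0.05 there were 2 of the 10, Pdyn and Tac1, against 10.5% of all tested genes. Limma on the recovered values called 0 of the 10 and only 2 of all 13602 genes, so its lack of calls says little about any gene or list below. It also had 2 of the 10 at an unadjusted p below 0.05, against 7.61% of all genes with recovered reads. The fold change was above 0 for 9 of the 10 genes, against 47.2% of all tested genes. Its median over the 10 was 0.39 on the log2 scale, against -0.02 over all tested genes. Every stroke library lay above both sham libraries for 3 genes, Tac1, Pdyn and Cck, and below both for 0. Over the 13602 genes with recovered reads those shares were 12.1% and 13.2%. These traits were not particular to the neuropeptide genes. Lists of 10 microglial and 10 endothelial markers each had 9 genes above 0, with medians of 0.44 and 0.43. In each of those lists, every stroke library lay above both sham libraries for 5 genes.

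**Figure D1:**
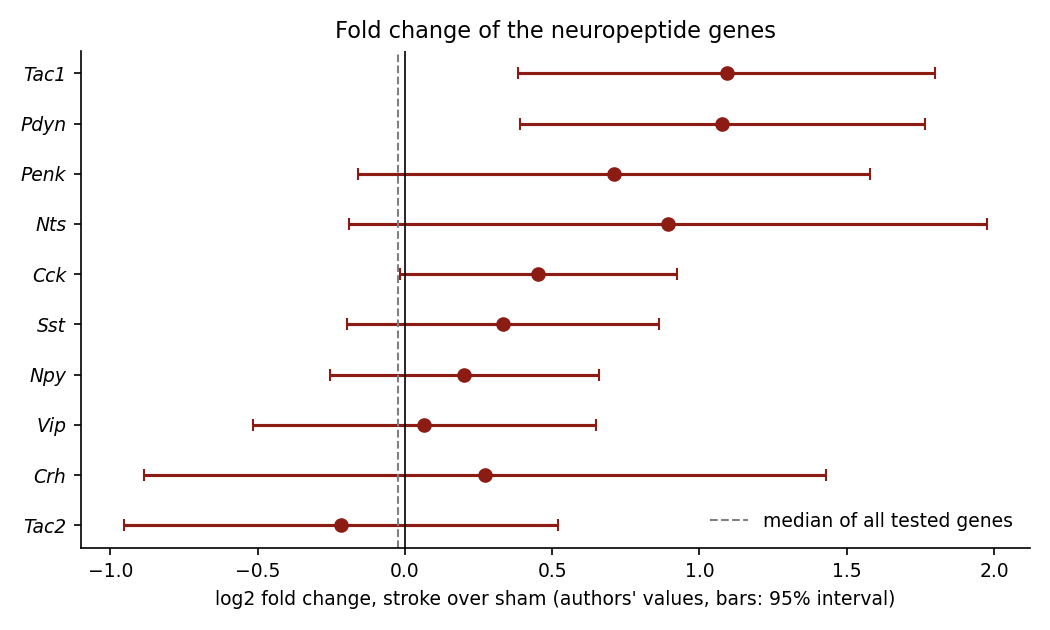
Log2 fold change (stroke over sham) of the 10 genes in the authors' deposited table, with 95% intervals as bars and the median of all tested genes as a dashed line. The intervals of Tac1 and Pdyn lie above 0, and those of the other 8 genes include 0.

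Pdyn and Tac1, the 2 peptide genes of the direct striatal pathway, had the smallest p-values of the 10. Pdyn encodes prodynorphin, whose peptides act on the kappa opioid receptor, and lies at chr2:129686565-129699844 on GRCm38. Normalized counts were 865 (deeper sham library), 478 (shallower sham library), and 1814, 1403 and 1038 in the deepest, middle and shallowest stroke library. The lowest stroke library was 1.20 times the higher sham library, so the groups did not overlap. The stroke mean was 1418 ± 388 (SD, n = 3). The log2 fold change was 1.08 (SE 0.35), a 2.11-fold higher level, with an adjusted p of 0.0972 from the DESeq2 fit in the authors' deposited table.

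Tac1 encodes the precursor of substance P and neurokinin A and lies at chr6:7554879-7565834. The deeper sham library held 876 normalized reads of it and the shallower 590.0, against 2109, 1596 and 987 in the stroke libraries from deepest to shallowest. The groups did not overlap, but the shallowest stroke library was only 1.13 times the deeper sham library. The stroke mean was 1564 ± 562 (SD, n = 3). On the log2 scale this was 1.09 (SE 0.36), or 2.13-fold, and the adjusted p of the authors' DESeq2 fit was 0.105.

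Penk, at chr4:4133531-4138819, encodes the enkephalins, ligands of the delta and mu opioid receptors, and marks the indirect pathway. Its normalized count was 5541 and 3592 in the deeper and shallower sham libraries, and 12169.5, 6407 and 3841 in the stroke libraries. The shallowest stroke library lay between the sham libraries, and the deepest held 3.17 times as much as the shallowest. Its log2 fold change, 0.71 (SE 0.44, adjusted p = 0.646 by the authors' DESeq2), was not past the spread between libraries. Penk shares 233 exon bases with A830012C17Rik on the opposite strand, whose mean was 3.3, and no source used here states whether the counting used strand.

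All 3 striatal peptide genes had the same order in the stroke libraries, highest in the deepest and lowest in the shallowest. Markers of striatal projection neurons moved with them. All 16 recovered markers were highest in the deepest stroke library, and 13 were lowest in the shallowest. Their summed count was 45953, 30403 and 23994 from deepest to shallowest, and 29405 and 32568 in the deeper and shallower sham libraries. Over groups, however, none of the 20 tested markers was called by the authors' DESeq2 fit or had an unadjusted p below 0.05, limma called 0 of the 16 recovered, and their median log2 fold change was 0.08. The 2 most abundant, both part of cyclic AMP signalling, were Adcy5 at 0.38 (SE 0.34) and Ppp1r1b at 0.20 (SE 0.37). The part that striatal content had in the spread among the stroke libraries was not tested. In these bulk samples, fewer cells of a type and less RNA per cell cannot be told apart.

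The 3 striatal peptide genes were then set against markers of the projection neurons that make them, within each library, a measure chosen after the values had been seen. Penk, whose counts overlapped between groups, did not overlap when divided by a marker of the indirect pathway. Per normalized read of Drd2, the D2 dopamine receptor gene, it had 5.29 (deeper) and 5.12 (shallower) in sham and 9.54, 9.66 and 7.82 in stroke, from deepest to shallowest. The ratio to Adora2a, an adenosine receptor gene, was 4.90 and 6.67 in sham and 8.49, 9.29 and 7.42 in stroke. The ratio to Gpr6 was 16.5 and 14.6 in sham and 34.1, 25.5 and 27.0 in stroke. Over all 13602 recovered genes, the ratio to Drd2, Adora2a and Gpr6 was higher in every stroke library for 5.43%, 2.48% and 10.8%.

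Per normalized read of Drd1, the D1 dopamine receptor gene of the direct pathway, Tac1 had 0.862 and 0.327 in the deeper and shallower sham libraries and 1.10, 1.22 and 0.913 in stroke. Pdyn had 0.850 and 0.265 and 0.949, 1.07 and 0.960 in stroke. Both stood apart between groups, as 3.67% of recovered genes did, though the deeper sham library came close to the lowest stroke library for each. Drd1 was the 1 marker used for these genes, where 3 were used for Penk. It had 1017 and 1804 normalized reads in the deeper and shallower sham libraries. Isl1, another marker on the striatal list, had 142 and 47.7, the opposite order, so the separation depends on the marker chosen. The markers may themselves differ after stroke, so these ratios describe the libraries and carry no test.

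**Figure D2:**
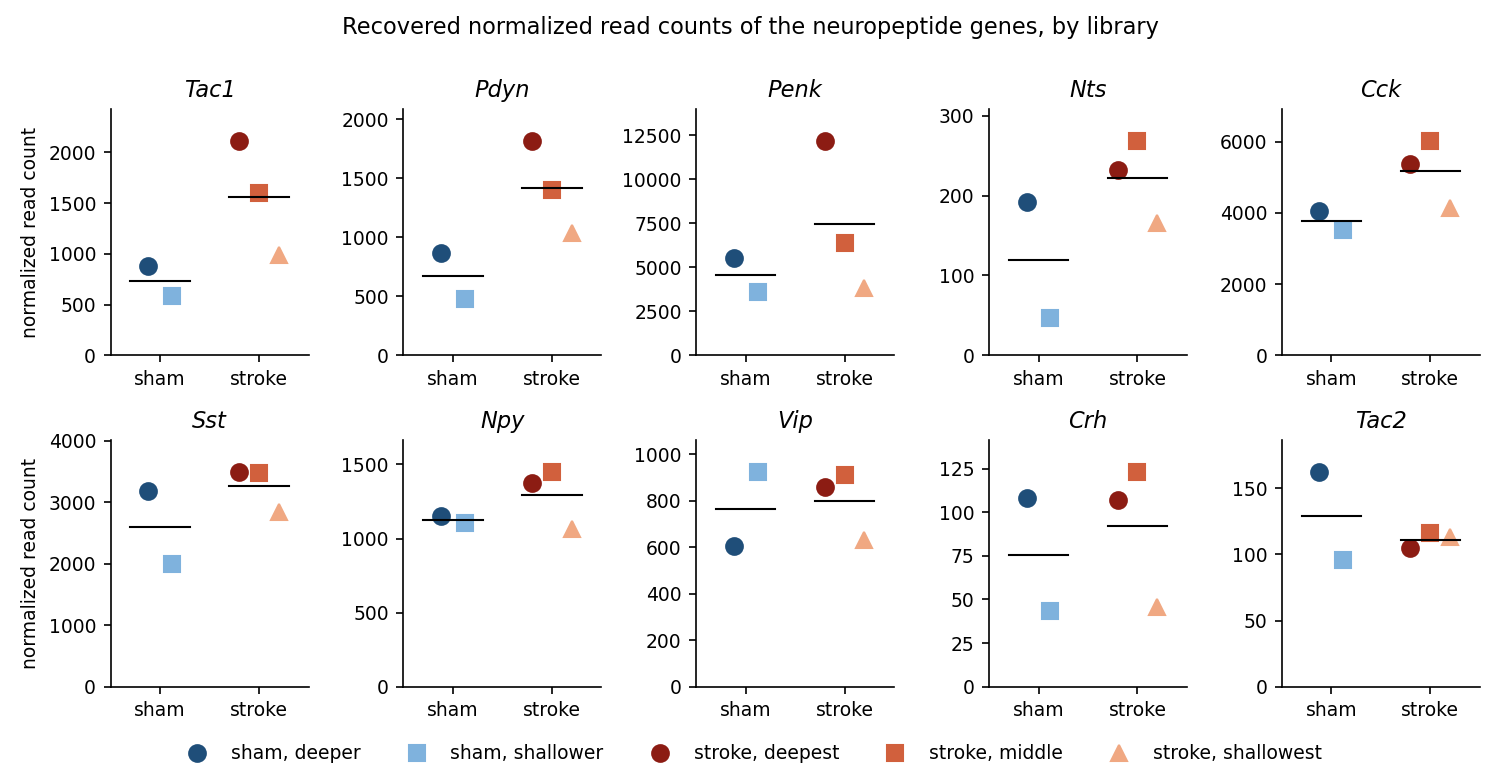
Normalized read count of each neuropeptide gene in each of the 5 libraries (points), with the group mean as a line; each panel starts at 0. The groups are apart for Tac1, Pdyn and Cck, and 9 of the 10 genes, all except Tac2, are lowest in the shallowest of the stroke libraries.

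Cck was the third gene whose groups did not overlap. It encodes cholecystokinin, one of the most abundant cortical neuropeptides, and lies at chr9:121489824-121495694. The sham libraries had 4048 (deeper) and 3526 (shallower) normalized reads, and the stroke libraries 5386, 6013 and 4148. The smallest stroke value was 1.02 times the larger sham value, so the gap was small beside the stroke SD of 949 (mean 5182, n = 3). The log2 fold change was 0.45 (SE 0.24, adjusted p = 0.510 by the authors' DESeq2), with a 95% interval from -0.02 to 0.92.

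Nts encodes neurotensin and neuromedin N and lies at chr10:102481756-102490486. The sham libraries had 192 (deeper) and 46.3 (shallower) normalized reads, against 232, 268 and 166 after stroke. The sham libraries differed 4.14-fold, the widest sham gap of the 10 genes, and the shallowest stroke library lay below the deeper sham library. The log2 fold change, 0.89 (SE 0.55, adjusted p = 0.640 by the authors' DESeq2), therefore depends on which sham library is taken. By limma it was 2.21 without the deeper sham library and 0.18 without the shallower.

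Among the interneuron peptides, Sst encodes somatostatin and lies at chr16:23889573-23890958. Normalized reads numbered 3184 in the deeper sham library, 2003 in its shallower counterpart and 3484, 3474 and 2843 in stroke. The deeper sham library lay inside the stroke range, and the log2 fold change was 0.33 (SE 0.27, adjusted p = 0.798 in the authors' DESeq2 fit). Npy, the gene of neuropeptide Y, which many somatostatin cells also make, lies at chr6:49822710-49829507. It held 1149 and 1102 normalized reads in the deeper and shallower sham libraries and 1376, 1446 and 1062 in stroke. Its sham libraries were the closest of the 10 genes, at a ratio of 1.04, and its log2 fold change was 0.20 (SE 0.23, 95% interval -0.25 to 0.66). No change and the changes within that interval could not be told apart with these libraries.

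Vip, the gene of vasoactive intestinal peptide, lies at chr10:5639218-5647617 and marks a class of interneurons that inhibit other interneurons. It was the 1 gene of the 10 that was lower in the deeper sham library, at 605 against 921 in the shallower. The stroke libraries held 857, 908 and 631, all between the sham values. The log2 fold change was 0.07 (SE 0.30, 95% interval -0.52 to 0.65).

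Crh and Tac2 had the lowest levels. Crh encodes corticotropin-releasing hormone and lies at chr3:19693401-19695396. The sham libraries held 102 (deeper) and 32 (shallower) reads of it and the stroke libraries 124, 139 and 51, or 108 and 43.6 against 107, 123 and 45.7 after normalization. The groups overlapped almost fully, and the log2 fold change of 0.27 had an SE of 0.59, the largest of the 10. Tac2 encodes neurokinin B and lies at chr10:127724478-127731768. It was the 1 gene with a fold change below 0, at -0.22 (SE 0.38, adjusted p = 0.951 in the authors' DESeq2 fit). Its normalized count was 162 and 95.4 in the deeper and shallower sham libraries and 105, 116 and 113 in stroke, so that the stroke libraries were close together between the sham values.

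Per kilobase of merged exon in GENCODE M21, Sst had the highest mean level over the 5 libraries, 4158 normalized reads per kb. Penk (3862) and Cck (3543) followed, and the ranges of these 3 over the libraries overlapped. Npy (2168) came next, and its highest library, at 2555, lay below the lowest of Cck, at 2702. Then came a wide gap to Pdyn (388), Tac1 (362), Vip (231) and Nts (145), each of which overlapped its neighbour in the order. Tac2 (85.7) and Crh (64.7) were lowest and also overlapped. Merged exon length counts exons of all annotated transcripts, so the level of a gene with rare long transcripts is understated.

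The neuropeptide genes shared a pattern across libraries that the choice by symbol did not use. The deeper sham library held more than the shallower for 9 of the 10, against 55.2% of the 8746 recovered genes with a mean of at least 80. The shallowest stroke library was the lowest of its group for 9 of the 10, against 34.7% of those genes. The summed count of all 10 was 16730.0 and 12397 in the deeper and shallower sham libraries and 27639, 21754 and 14874 in stroke. Of the 5 recovered pan-neuronal markers, Tubb3, Nefm, Nefh and Gap43 had both features and Elavl4 had neither, at 2801 and 3800.0 in sham and 3098, 3875 and 3554 in stroke. The 5 summed to 22993 and 15790.1 in sham and 24654, 23602 and 18607 in stroke. All 18 pan-neuronal genes had a median log2 fold change of 0.15, with 0 called by the authors' DESeq2 fit and 0 at an unadjusted p below 0.05 in it, and limma called 0 of the 5 recovered. The most abundant, Snap25 and Syt1, stood at 0.05 (SE 0.27) and 0.17 (SE 0.27). Measured from the pan-neuronal median, the log2 fold changes were 0.93 for Pdyn, 0.94 for Tac1 and 0.30 for Cck, and that of Vip turned to -0.08. The pattern was not particular to the neuropeptide genes. Of 10 microglial markers, 10 were higher in the deeper sham library and 7 were lowest in the shallowest of the stroke libraries. The same counts were 10 and 8 of 11 other forebrain neuropeptide genes and 17 and 15 of 22 activity-linked genes. They were 7 and 3 of 7 astrocyte, 7 and 1 of 7 oligodendrocyte and 1 and 2 of 10 endothelial markers. The part of neuronal, regional or other cell content in this pattern was not tested.

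**Figure D3:**
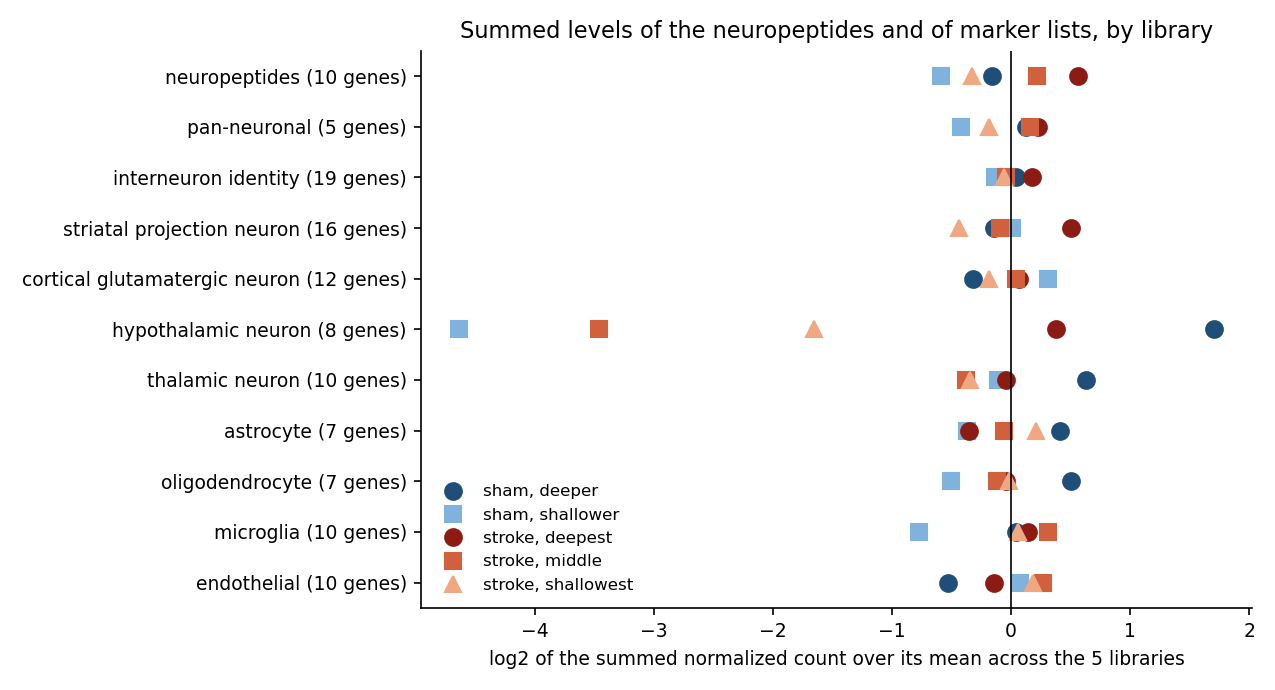
Summed normalized count of the neuropeptide genes and of marker lists in each library, as log2 of its ratio to the mean of the 5 libraries; only genes with recovered reads enter, and abundant genes weigh most. Hypothalamic markers sum to 2540.3 (deeper) and 31.3 (shallower) in sham, and the neuropeptide and striatal sums are both highest in the deepest stroke library.

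Summed markers of other cell types also differed between the sham libraries, and the cause was not tested. Recovered oligodendrocyte markers summed to 2.02 times, microglial markers to 1.76 times and astrocyte markers to 1.73 times as much in the deeper as in the shallower sham library, and endothelial markers to 0.658 times. None of the 10 genes on each of these 4 lists was called by the authors' DESeq2 fit, and limma called 0 of the 7 astrocyte, 7 oligodendrocyte, 10 microglial and 10 endothelial genes recovered. At an unadjusted p below 0.05 in the authors' table there were 1 astrocyte, 0 oligodendrocyte, 2 microglial and 3 endothelial genes, where 10.5% of all tested genes were. The fold change was above 0 for 9 of 10 microglial and 9 of 10 endothelial genes, with median log2 values of 0.44 and 0.43. In each of these lists, 5 of 10 genes had every stroke library above both sham libraries, against 12.1% of all recovered genes. Of astrocyte and oligodendrocyte genes, 3 and 2 of 10 were above 0, with medians of -0.22 and -0.30. Csf1r, a microglial growth factor receptor, was at 0.52 on the log2 scale (SE 0.30). Of endothelial genes, Flt1, a VEGF receptor, was at 0.62 (SE 0.26). Slco1a4, a transporter and the 1 endothelial gene below 0, was at -0.87 (SE 0.51). Mbp, a myelin gene, stood at -0.58 (SE 0.34), and Slc1a2, an astrocyte glutamate transporter, at -0.33 (SE 0.30). Aldoc, another abundant astrocyte gene, stood at -0.24 (SE 0.30).

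Interneuron identity genes gave no call among 22 tested in the authors' DESeq2 fit, with 3 at an unadjusted p below 0.05, a share near the 10.5% of all tested genes. Limma called 0 of the 19 recovered, with 0 at an unadjusted p below 0.05. Their median log2 fold change was 0.16. Gad1, an enzyme of GABA synthesis, had 0.37 (SE 0.22). The 16 cortical glutamatergic genes had 0 calls in the authors' fit and a median of 0.07. At an unadjusted p below 0.05 in that fit there were 5 of the 16, a larger share than the 10.5% of all tested genes. Every stroke library lay above both sham libraries for 3 of the 12 recovered and below both for 1, against 12.1% and 13.2% of all recovered genes. Limma called 0 of the 12 recovered, with 2 at an unadjusted p below 0.05, against 7.61% of all genes recovered. Camk2a and Cplx2, the most abundant of them, stood at -0.13 (SE 0.22) and 0.19 (SE 0.24).

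On the receiving side, 2 receptor genes passed the test while none of the peptide genes did. Of 24 tested receptors and binding proteins of the 10 peptides, 2 rose and none fell, against 0.775% of all tested genes called higher. Vipr1, a receptor of vasoactive intestinal peptide, had normalized counts of 453 and 447 in the deeper and shallower sham libraries and of 1054, 987 and 745 in stroke. The groups were well apart, and the log2 fold change was 1.05 (SE 0.25, adjusted p = 0.00629 in the authors' DESeq2 fit). Sstr2, a somatostatin receptor, had 287 and 209.8 in sham and 715, 661 and 394 in stroke, also without overlap. Its log2 fold change was 1.25 (SE 0.35, adjusted p = 0.0279 in the same fit). Limma, with its 2 calls among 13602 genes, called 0 of the 23 recovered receptor genes and had 5 at an unadjusted p below 0.05, against 7.61% of all genes recovered. That rise in Sstr2 and Vipr1 stood beside ligand fold changes of 0.33 for Sst and 0.07 for Vip.

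The other receptors were spread on both sides of 0. Sort1, sortilin, which binds neurotensin, and Adcyap1r1, the PACAP receptor that also binds the Vip peptide, were the most abundant. Their log2 fold changes were 0.08 (SE 0.24) and 0.23 (SE 0.25). The median over the 24 was 0.20, and 8 of 23 recovered genes had every stroke library above both sham libraries, against 12.1% of all genes recovered. The receptors of the 3 peptide genes that stood apart are named for their ligands, outside the rule for named genes. Oprk1, the kappa opioid receptor that binds dynorphin, had 524 and 1011 normalized reads in the deeper and shallower sham libraries and 566, 416 and 484 in stroke. Its log2 fold change was -0.65 (SE 0.34), the opposite sign to that of Pdyn, and did not pass (adjusted p = 0.501 in the authors' DESeq2 fit). Tacr1, the substance P receptor, stood at 0.21 (SE 0.33). Cckbr, the main brain receptor of cholecystokinin, had 719.8 and 651 in sham and 923, 974 and 1257 in stroke. The groups did not overlap, yet the fold change of 0.62 (SE 0.24) had an adjusted p of 0.230 in that fit.

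**Figure D4:**
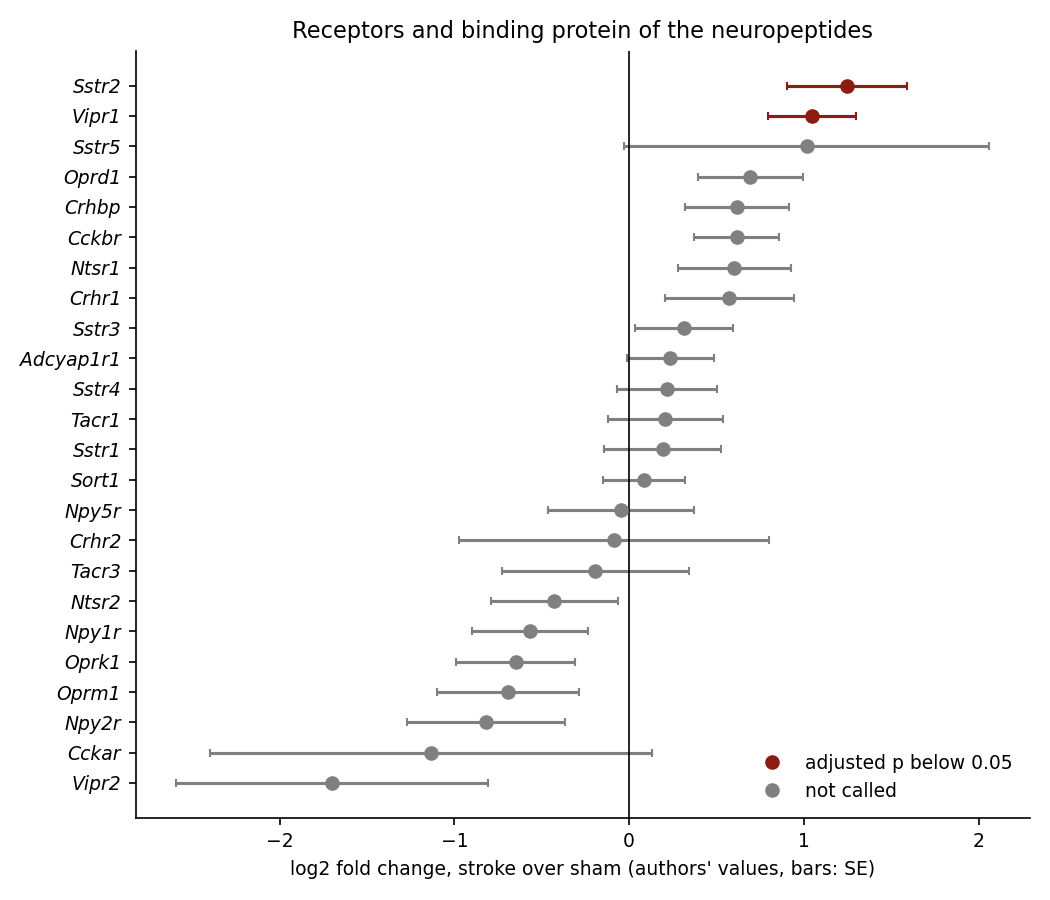
Log2 fold change (stroke over sham) of the 24 tested receptor and binding-protein genes in the authors' deposited table, with the SE as bars. Sstr2 and Vipr1, in red, have an adjusted p below 0.05, and the other 22 do not.

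Genes that make, store and break down the peptides gave no calls. Of 13 prohormone processing genes, 12 granin and dense-core vesicle genes and 13 peptide-degrading genes, 0 were called by the authors' DESeq2 fit, with 0, 1 and 2 at an unadjusted p below 0.05, against 10.5% of all tested genes. Limma called 0 of the 10, 3 and 11 recovered. Cpe, carboxypeptidase E, which trims the cut peptides, had a log2 fold change of 0.06 (SE 0.24), and Pcsk2, a prohormone convertase, -0.08 (SE 0.26). Ptprn and Rab3a, both of secretory vesicles, had 0.30 (SE 0.26) and 0.05 (SE 0.22). Among degrading enzymes, Prepl had 0.10 (SE 0.23) and Npepps, an aminopeptidase, 0.33 (SE 0.23). The medians of these lists were 0.22, 0.13 and -0.05.

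Other forebrain neuropeptide genes, 11 tested, also had 0 calls by either tool, with 1 at an unadjusted p below 0.05 in the authors' table (10.5% of all tested genes) and 0 by limma. Their median log2 fold change was 0.27. The deeper sham library held more than the shallower for 10 of the 11, so the gap between sham libraries was not limited to the 10 genes described here. Nucb2, the nesfatin precursor, stood at 0.27 (SE 0.27) and Adcyap1, the PACAP precursor, at 0.51 (SE 0.32).

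Transcription factors and targets linked to neuronal activity were the list with the most calls. Of 22 tested, 8 rose and none fell in the authors' DESeq2 fit, against 0.775% of all tested genes called higher, with a median log2 fold change of 0.92. The 8 were Atf3, Bdnf, Npas4, Fos, Junb, Egr1, Fosl1 and Jun, and limma called 1 of the 22, which is 1 of its 2 calls over all genes, with 11 at an unadjusted p below 0.05. Fos, part of AP-1, had 321 and 140.3 normalized reads in the deeper and shallower sham libraries and 1360.4, 1731 and 537 in stroke, a log2 fold change of 2.39 (SE 0.50). Npas4, a factor induced by calcium entry in neurons, had 266 and 98.1 in sham and 774, 1213 and 677 in stroke, a change of 2.28 (SE 0.44). Bdnf, a neurotrophin gene driven by CREB, rose by 1.43 (SE 0.28). Junb, another AP-1 gene, rose by 1.61 (SE 0.37), and Atf3, a stress-induced factor that binds the same element, by 4.16 (SE 0.41). Crtc1, a CREB coactivator, and Jund, the most abundant uncalled genes, stood at 0.01 (SE 0.25) and 0.80 (SE 0.45). Fos was lowest of the stroke libraries in the shallowest, as were 15 of the 22 genes and as were Tac1, Pdyn and Penk.

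Each library was left out in turn. Without the deeper sham library, the one with hypothalamic reads, limma called Nts, Pdyn, Sst and Tac1, 4 of the 10, against 18.4% of all genes. With 1 sham library left, that fit takes the lone library to vary like the stroke libraries. Nts had the smallest adjusted p there, 0.00743. Against the shallower sham library alone, 8 of the 10 genes were higher in every stroke library, where 38.1% of all genes were, and against the deeper alone 4 of the 10, where 29.2% were. The shallower sham library held the lower sham value for 9 of the 10 genes. Pdyn and Tac1 kept a positive fold change in every fit, from 0.68 to 1.53 and from 0.77 to 1.35 by limma.

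**Figure D5:**
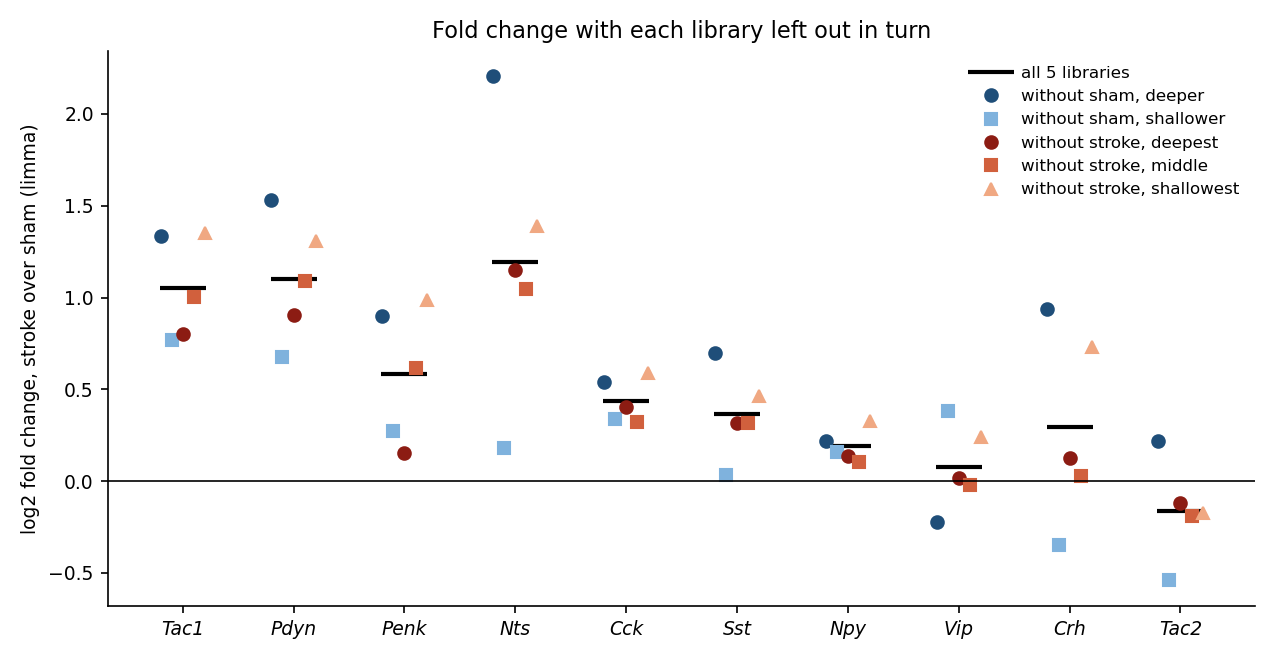
Log2 fold change of each gene by limma with all 5 libraries (bar) and with each library left out in turn (points). Tac1 and Pdyn stay at or above 0.68 throughout, and Nts runs from 0.18 without the shallower to 2.21 without the deeper sham library.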

How the data were processed

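RNA was sequenced in 5 libraries (2 sham, 3 stroke). Per the submitters' processing notes, FastQC, STAR 2.5.2b, featureCounts 1.5.1 and DESeq2 1.14.1 were used with GRCm38. No source used here gives the annotation release or the strand setting. Per the file headers, the authors deposited 1 row per gene: a signal (the mean of counts divided by size factors), a log2 fold change with its SE, the Wald statistic (a score), a p-value and an adjusted p-value. Calls use an adjusted p below 0.05. No values per library were used as deposited.

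Whole reads per library were searched for that give the authors' mean, their log2 fold change (to within 1.2e-09) and their SE under a 2-group negative binomial fit. A set was accepted only if its own dispersion estimate, shrunk to a fitted trend (0.0375 + 7.87/mean, prior variance 0.601), also matched the dispersion implied by the SE to within 2e-04 on the natural log scale. Of 13633 genes tried (means up to 1500, or 6500 for listed genes), 13602 had exactly 1 set. Of 200 genes shifted on purpose, 0 were accepted. Tested on simulated data for this comparison, 194 of 194 other genes and 10 of 10 neuropeptide genes were recovered. Fold changes above 0 were taken as stroke above sham, since that was the sign of genes whose only read lay in 1 of 3 libraries. The means sum to 2.65e+07, and no source used here gives the reads of each library in total.

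Limma 3.58.1 (R 4.3.3, trend and robust variance) was run on log2(normalized count + 1). In simulated counts for 13602 genes it called 59 of 100 genes changed 4-fold, 11 of 100 changed 2-fold and 4 of 13402 unchanged. EdgeR had been planned in case the file held counts per library, which it did not, so the authors' DESeq2 test was kept. Nothing in the labels says that libraries of a group come from separate animals, so p-values measure the spread between these samples. Alternatives were other adjustments, a 1.5-fold null, centring, pseudocounts and left-out libraries.

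The 10 genes and all lists were chosen with earlier results of these data known. Named were all 10 genes, and of each list up to 5 called genes by adjusted p and the 2 most abundant uncalled ones. A few genes that this rule names are not reported here. Genes outside that rule are the remaining called activity genes, Oprk1, Tacr1 and Cckbr, and the region markers given beside the results. So are Drd1, Drd2, Adora2a, Gpr6 and Isl1, chosen after values were seen. Of the called genes, those of the hypothalamic and thalamic lists (Lhx9, Otp, Oxt and Tcf7l2, all lower) were highest in the deeper sham library, on which the size of their change leans. For Tcf7l2 the shallower sham library, at 252 normalized reads, also lay above the stroke libraries, at 173, 185 and 193. So did that of Otp, but with 2 reads.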

Additional observations from a re-analysis of the deposited data

How the results depend on the processing

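The number of the 10 genes called was 0 with adjustment over every gene with a p-value, over genes whose mean reached 5 CPM, against a null of a 1.5-fold change, with centring on all tested genes or on the pan-neuronal list, and by limma with a pseudocount of 1 or 5. Crh and Tac2 fell below 5 CPM and were not in that setting. In the same order, the calls over all genes were 187 of 31651, 142 of 11519 and 27 of 17420. With centring they were 295 and 271 of 17420, and by limma 2 of 13602 with either pseudocount. Without any 1 of the stroke libraries limma called 0 of 13602 genes, so the lack of calls among the 10 says little there. With each library left out, 0 to 4 genes were called. The 4 came without the deeper sham library: Sst (log2 fold change 0.70, adjusted p = 0.0312), Tac1 (1.34, adjusted p = 0.0445), Pdyn (1.53, adjusted p = 0.0144) and Nts (2.21, adjusted p = 0.00743). Only 1 sham library was left there, and 2501 of 13602 genes were called. The median log2 fold change of the 10 was 0.42 after centring and 0.23 to 0.80 with a library left out, highest without the deeper sham library. The number of genes with every stroke library above sham was 8 without the deeper and 4 without the shallower sham library, settings chosen after seeing the data. The log2 fold change of Vip ran from -0.22 to 0.38 with a library left out and was -0.0819 with pan-neuronal centring, that of Crh ran from -0.35 to 0.94 and that of Tac2 from -0.54 to 0.22, so their signs turned. The cause was not tested. Of 118 values of single genes under an alternative, 109 kept their sign and their side of the threshold. No paired analysis was possible because the deposited columns carry no replicate number and the recovered libraries are not tied to the labels' numbers. The fewest reads behind a value were 32 for Crh and 34 for Nts, in the shallower sham library.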
